A study of Mus musculus with 8 samples.

Results

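The genes described here are 9 that carry out or tune the first steps of T-cell receptor signalling, or mark the T-cell surface: *Lck*, *Fyn*, *Zap70*, *Lat*, *Ptprc*, *Cd28*, *Cd5*, *Cd6* and *Thy1*. They were taken by name from a table of read counts with 55247 rows, and each name matched 1 row. The 8 libraries were made from total RNA of tumor-inoculated back skin of female wild-type mice aged 8 weeks (C57BL/6J in the sample labels, C57BL/6JJmsSlc in the methods). Ribosomal RNA was to be removed, but *Rn18s* still held 54.8% to 58.6% of the counts with bexarotene and 50.8% to 59.8% with vehicle. Every mouse had received 100 µL of EL4 cells at 2000000 cells/mL under the skin on Day 0. The drug tested, bexarotene, binds retinoid X receptors. It was given at 0.1 mg into the peritoneum on Day 14 to 4 mice (Bexarotene 1 to 4), 4 mice were given vehicle (Vehicle 1 to 4; the drug itself was dissolved in dimethyl sulfoxide and corn oil), and tissue was taken on Day 16. EL4 is a mouse T-cell lymphoma line and is the same line in every mouse, so each library mixes tumor cells, host T cells, other leukocytes and skin. In such bulk tissue, fewer cells of a type and less RNA per cell cannot be told apart.

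As background, antigen recognition brings LCK, a Src family kinase bound to the CD4 and CD8 co-receptors, to the CD3 chains, whose tyrosines it phosphorylates. FYN is a related kinase that is also made outside the immune system. ZAP-70 docks on the phosphorylated chains and phosphorylates LAT, a membrane scaffold on which phospholipase C and Ras activators assemble. CD45, the phosphatase encoded by *Ptprc* and carried by all nucleated blood cells, removes the inhibitory phosphate of LCK. CD28 adds the costimulatory signal, CD5 and CD6 are scavenger-receptor-like proteins that tune signalling, and THY1 is a lipid-anchored surface protein that marks mouse T cells but is also made by some fibroblasts and neurons.

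The libraries held 8518428 to 18340980 counts with bexarotene and 16196852 to 24020342 with vehicle. Levels are given as CPM, the count relative to a library size that was scaled by TMM (trimmed mean of M values). Each log2 fold change is that of bexarotene over vehicle in the quasi-likelihood test of edgeR. Bexarotene 1 and Bexarotene 2 stood apart, with 6.35% and 4.02% of their counts in protein-coding genes, against 9.55% to 19.0% in the other 6 mice, and with 23.2% and 33.1% of their mitochondrial coding counts in *mt-Nd6*, against 1.09% to 1.53%. In Bexarotene 2, 1 count was worth 0.422 CPM, against 0.0199 CPM in Vehicle 1. Vehicle 4 was almost without keratinocyte RNA: the summed level of 6 keratinocyte genes, in CPM per kilobase of gene, was 0.637 there and between 14.4 and 114 in the other mice. A value without Bexarotene 1 and 2 is given for each gene. The replicates are separate mice.

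The 9 genes lie on 6 chromosomes of GRCm39. *Zap70* (ENSMUSG00000026117, 36800879 to 36821899), *Cd28* (ENSMUSG00000026012, 60755959 to 60812518) and *Ptprc* (ENSMUSG00000026395, 137990599 to 138103446) are on chromosome 1. *Lck* (ENSMUSG00000000409) is on chromosome 4 from 129442137 to 129467434, *Lat* (ENSMUSG00000030742) on chromosome 7 from 125962996 to 125968742, *Thy1* (ENSMUSG00000032011) on chromosome 9 from 43954681 to 43959876, and *Fyn* (ENSMUSG00000019843) on chromosome 10 from 39244851 to 39441377. *Cd5* (ENSMUSG00000024669, 10694480 to 10716366) and *Cd6* (ENSMUSG00000024670, 10766705 to 10807422) are neighbors on the minus strand of chromosome 19, 50338 bases apart. In the count table, *Fyn* and *Zap70* overlap rows on the opposite strand, and *Lck* and *Ptprc* overlap rows on their own strand by 129 and 5864 bases. Whether reads were counted by strand is not given in the sources used here. Reads in the stretches that *Fyn*, *Zap70* and *Ptprc* share could go to either row or to none, which was not tested.

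*Lck* is counted as 1 row, but RefSeq gives it 2 start windows, which are shown because the counts below sum the transcripts of both. In mouse T cells the upstream start is known from mature cells and the downstream one from thymocytes. *Cd5* and *Lat* are shown beside it as the single windows of a surface receptor and of the scaffold, which differed several-fold in level. Each window holds 300 bases, most of them before the start (RefSeq, GRCm38.p6, an older build than that of the counts, so these positions cannot be set against those above). All 4 are on the minus strand and are printed 5′ to 3′ along the gene. Capitals mark the ETS letters GGAAGT or the RUNX letters TGTGGT, on either strand.
Lck upstream (chr4:129573592-129573891): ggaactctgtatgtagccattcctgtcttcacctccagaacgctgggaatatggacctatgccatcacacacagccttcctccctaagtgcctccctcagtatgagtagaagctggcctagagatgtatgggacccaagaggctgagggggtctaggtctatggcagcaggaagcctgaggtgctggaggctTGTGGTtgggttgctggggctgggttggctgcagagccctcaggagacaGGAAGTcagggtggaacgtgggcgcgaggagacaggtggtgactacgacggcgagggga
Lck downstream (chr4:129558323-129558622): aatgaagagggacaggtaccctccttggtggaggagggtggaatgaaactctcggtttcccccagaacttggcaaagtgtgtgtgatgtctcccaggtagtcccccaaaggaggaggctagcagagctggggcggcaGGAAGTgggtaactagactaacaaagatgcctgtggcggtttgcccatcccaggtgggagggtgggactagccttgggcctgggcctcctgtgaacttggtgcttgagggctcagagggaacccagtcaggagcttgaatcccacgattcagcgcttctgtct
Cd5 (chr19:10738925-10739224): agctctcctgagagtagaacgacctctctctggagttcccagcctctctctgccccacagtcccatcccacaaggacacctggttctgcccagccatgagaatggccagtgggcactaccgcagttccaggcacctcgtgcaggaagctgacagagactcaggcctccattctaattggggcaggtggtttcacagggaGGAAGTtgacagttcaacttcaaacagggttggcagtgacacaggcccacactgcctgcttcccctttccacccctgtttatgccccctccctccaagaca
Lat (chr7:126369519-126369818): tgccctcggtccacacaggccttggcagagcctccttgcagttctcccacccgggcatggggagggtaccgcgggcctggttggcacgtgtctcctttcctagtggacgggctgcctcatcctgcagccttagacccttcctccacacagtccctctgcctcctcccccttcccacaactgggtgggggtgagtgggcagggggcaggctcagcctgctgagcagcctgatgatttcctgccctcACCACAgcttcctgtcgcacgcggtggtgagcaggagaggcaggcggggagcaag

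Counted in bases from the start, the RUNX letters began at −58 and the ETS letters at −9 in the upstream window of *Lck*. The ETS letters also began at −113 in the downstream window and at −51 in that of *Cd5*, and the RUNX letters, on the opposite strand, at −5 in that of *Lat*. No match overlapped another in these windows. RefSeq windows were matched for 6 of the 9 genes, 10 windows in all. The ETS letters were in 6 of the 10, against 23.8% of all 32851 windows of the same length, and the RUNX letters in 3, against 16.8%. The nuclear receptor half-site AGGTCA was in 1, a window of *Zap70*, against 16.3% of all windows. TATAAA was in 1, a window of *Ptprc*, against 13.6%. The 2 windows of *Ptprc* overlap and share 1 ETS match. A match of letters is a description and not a binding site. *Cd28*, *Cd6* and *Thy1* had no window.

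The 9 genes spanned more than 3 orders of magnitude in level. Per kilobase of the deposited gene length, *Thy1* averaged 35.3 ± 2.41 CPM with bexarotene and 34.1 ± 7.48 with vehicle (SD, n = 4 each), the highest of the 9 in every mouse. It held 46.5% to 55.5% of all counts of the 9 genes with bexarotene and 45.4% to 60.3% with vehicle. *Lck*, *Zap70* and *Ptprc* followed. *Lck* averaged 4.47 ± 0.459 and 4.02 ± 0.793 CPM per kilobase with bexarotene and vehicle (SD, n = 4 each), and *Zap70* 4.01 ± 1.29 and 3.10 ± 0.329. *Ptprc* averaged 2.63 ± 1.15 with bexarotene and 2.75 ± 0.489 with vehicle. These 3 changed places between mice: *Lck* was above *Zap70* in 6 of 8 mice, and *Zap70* above *Ptprc* in 6 of 8. *Cd5*, *Cd28* and *Fyn* came next and could not be ranked among themselves, since *Cd5* was above *Cd28* in 4 of 8 mice and *Cd28* above *Fyn* in 5 of 8. They averaged 1.36 ± 0.463, 1.37 ± 0.282 and 1.1215 ± 0.399 CPM per kilobase with bexarotene, against 1.28 ± 0.248, 1.18 ± 0.278 and 1.03 ± 0.268 with vehicle (SD, n = 4 each). *Lat*, at 0.127 ± 0.149 with bexarotene and 0.156 ± 0.0537 with vehicle, and *Cd6* were far below. *Fyn* was above *Lat* in all 8 mice, and *Lat* above *Cd6* in all but Bexarotene 2, where both were at 0.

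The length chosen sets the place of *Ptprc*. The deposited length of 18335 bases is close to the union of all its annotated exons, 18764 bases, whereas its canonical GENCODE transcript has 5124. With canonical lengths, an alternative chosen after seeing the data, *Ptprc* averaged 9.63 CPM per kilobase over the 8 mice in place of 2.69, above *Lck* at 6.85 and *Zap70* at 4.998. *Thy1* was first at 55.1 with these lengths too, and *Lat* (0.292) and *Cd6* (0.0243) were still last.

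**Figure D1:**
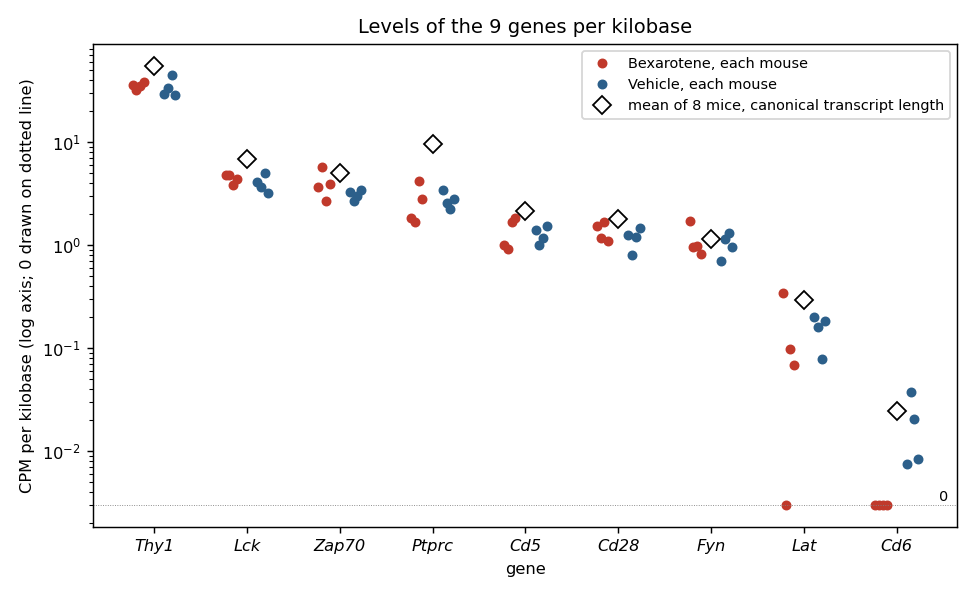
Level of each gene in CPM per kilobase of the deposited gene length (log axis) in each bexarotene-treated mouse (red) and vehicle-treated mouse (blue), with the mean over 8 mice per kilobase of the canonical transcript as open diamonds; values of 0 lie on the dotted line. *Thy1* is above every other gene in every mouse, *Cd6* is at 0 in the 4 bexarotene-treated mice, and the diamond of *Ptprc* (9.63) lies above that of *Lck* (6.85).

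None of the 9 genes passed the test of bexarotene-treated against vehicle-treated skin across all genes. The count filter passed 7 of them, and 0 of the 7 had an adjusted p under 0.05 in edgeR, against 0% (0 of 11616 rows) in the whole table; DESeq2 called 3 rows of the table and limma-voom 0, and neither called any of the 9. At an unadjusted p under 0.05 edgeR also gave 0 of the 7, against 428 of the 11616 rows tested (3.68%). By the same threshold limma-voom gave 399 of 11616 rows, and DESeq2 515 of the 25539 rows with a count (2.02%). In no case did all 4 bexarotene-treated mice lie below all 4 vehicle-treated mice, or above them (0 of 7 each, against 1.42% and 1.41% of the rows). The fitted log2 fold change was above 0 for 6 of the 7, against 46.5% of all rows tested. It ranged from −0.052 to 0.32 (median 0.14), against a median of −0.027 over all rows tested. With total counts as the only scaling, 0 of the 7 lay above 0 and their median was −0.53, but that of all rows moved to −0.66, so the genes lay 0.14 above it, against 0.17 with TMM. The median was 0.12 without Bexarotene 1 and 2 and 0.092 without Vehicle 4.

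**Figure D2:**
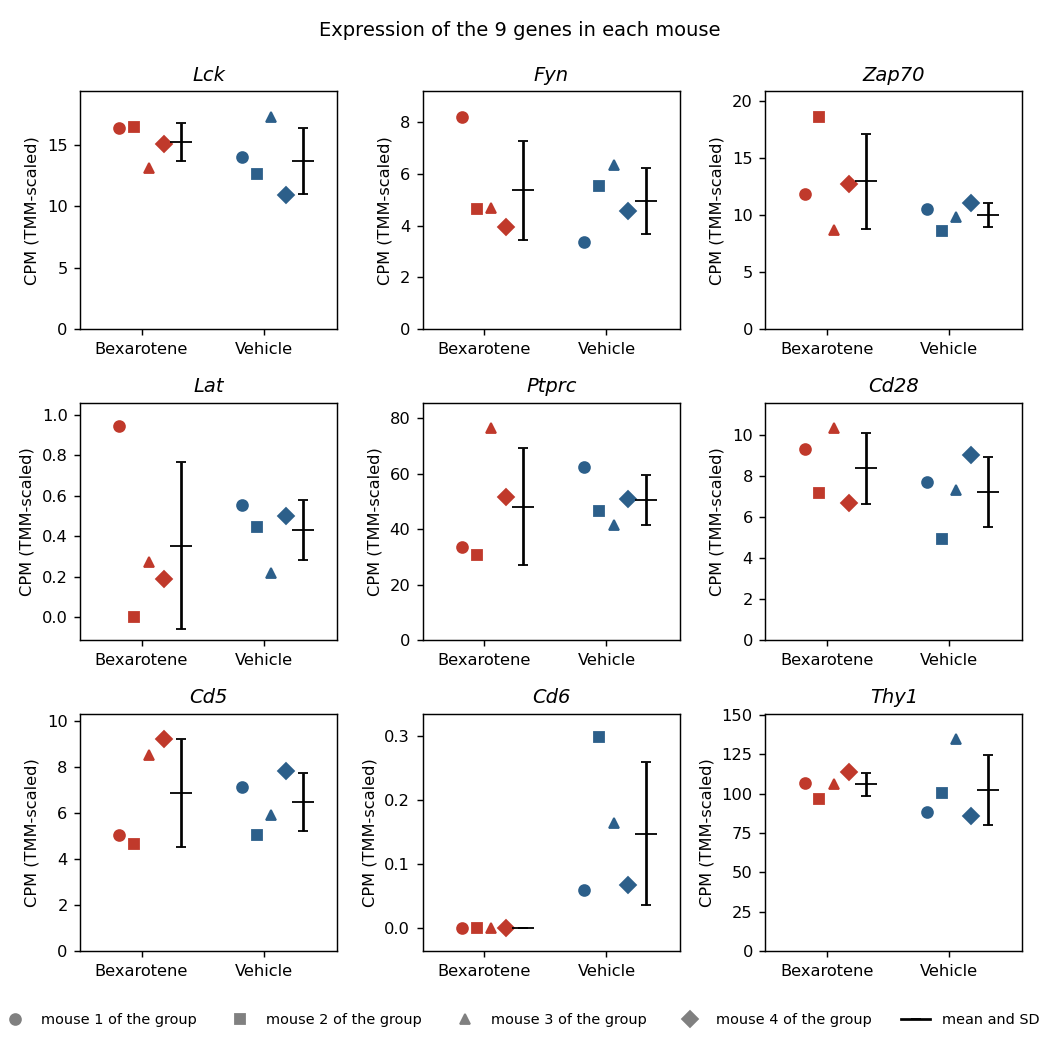
Expression of each gene in TMM-scaled CPM in the 4 bexarotene-treated mice (red, left) and the 4 vehicle-treated mice (blue, right), with a symbol for each mouse number within its group and the mean and SD of the group in black. The groups overlap for every gene but *Cd6*, which is at 0 in the 4 bexarotene-treated mice and between 0.0596 and 0.298 CPM with vehicle.

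Among the kinases, *Lck* varied least among the bexarotene-treated mice. It stood at 16.4, 16.5, 13.1 and 15.1 CPM in Bexarotene 1 to 4 and at 14.1, 12.6, 17.3 and 10.9 CPM in Vehicle 1 to 4. The highest and the lowest mouse were both vehicle-treated, Vehicle 3 and Vehicle 4, and the groups overlapped over the whole range of the bexarotene-treated mice. Its log2 fold change of 0.14 had a standard error of 0.18 and a 95% interval of −0.25 to 0.54 (edgeR, adjusted p = 0.985). On the linear scale that interval runs from 0.839 to 1.45-fold, so a change of 2-fold in either direction lies outside it. The fitted value was 0.051 without Bexarotene 1 and 2, 0.060 without Vehicle 4 and 0.27 without Vehicle 3.

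*Zap70* had the largest fitted value of the 7. It stood at 11.8, 18.6, 8.63 and 12.7 CPM in Bexarotene 1 to 4, against 10.5, 8.60, 9.77 and 11.1 CPM in Vehicle 1 to 4. The vehicle-treated mice lay close together, Bexarotene 3 lay among them, Bexarotene 1 and 4 a little above, and Bexarotene 2, with 44 counts, far above. For this gene the log2 fold change was 0.32 (standard error 0.22, adjusted p = 0.976 from edgeR; 95% interval −0.16 to 0.80). It was 0.14 without Bexarotene 2, 0.51 without Bexarotene 3 (unadjusted p = 0.0301 in edgeR) and 0.10 without Bexarotene 1 and 2. That p was the lowest over the edgeR fits without each mouse in turn, where it ran up to 0.467. Without Bexarotene 3, 7.85% of all rows tested had an unadjusted p under 0.05.

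*Fyn* stood at 8.20, 4.65, 4.69 and 3.96 CPM in Bexarotene 1 to 4 and at 3.36, 5.52, 6.33 and 4.55 CPM in Vehicle 1 to 4. Bexarotene 1 was the highest of the 8 mice, and the remaining 3 bexarotene-treated mice lay within the range of the vehicle-treated mice. Its log2 fold change of 0.11, with a standard error of 0.28 (edgeR, adjusted p = 0.9999), changed sign without Bexarotene 1 (−0.16), without Bexarotene 1 and 2 (−0.17) and without Vehicle 1 (−0.014). Within a library, *Lck* had 2.00, 3.55, 2.80 and 3.81 times the counts of *Fyn* in Bexarotene 1 to 4, against 4.19, 2.29, 2.73 and 2.40 times in Vehicle 1 to 4. That ratio was lowest in Bexarotene 1 and highest in Vehicle 1.

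*Lat*, the scaffold, had few reads. It had 6, 0, 8 and 4 counts in Bexarotene 1 to 4, against 28, 9, 4 and 15 in Vehicle 1 to 4. In CPM these are 0.947, 0, 0.272 and 0.189 with bexarotene and 0.556, 0.448, 0.218 and 0.502 with vehicle. Bexarotene 1 was the highest and Bexarotene 2 the lowest, and in Bexarotene 2 a count of 0 allows up to 1.27 CPM (3 counts), more than any mouse showed. Pooled over the group, *Lat* stood at 0.303 CPM with bexarotene (exact 95% Poisson interval 0.1798 to 0.479) and at 0.472 CPM with vehicle (0.357 to 0.613). These intervals overlap and cover counting error only. *Lat* did not pass the filter, and in a fit of the 25539 rows with a count its log2 fold change was −0.36 (standard error 0.70, adjusted p = 0.942 from edgeR). It was −1.05 without Bexarotene 1, −0.89 without Bexarotene 1 and 2, and −0.063 without Bexarotene 4.

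*Ptprc*, the leukocyte phosphatase gene, varied most among the bexarotene-treated mice of the genes that passed the filter. It stood at 33.8, 30.8, 76.5 and 51.6 CPM in Bexarotene 1 to 4 and at 62.6, 46.7, 41.6 and 51.0 CPM in Vehicle 1 to 4. Bexarotene 1 and 2 were below all other mice and Bexarotene 3 above all of them. The coefficient of variation was 43.6% with bexarotene and 17.8% with vehicle, where counting alone would give 5.86% and 2.79%. The log2 fold change was −0.052 (standard error 0.28, adjusted p = 0.9999 from edgeR; 95% interval −0.67 to 0.56), but 0.35 without Bexarotene 1 and 2 (adjusted p = 0.9999 from edgeR). The sign also turned without Bexarotene 1 (0.081), Bexarotene 2 (0.099) or Vehicle 1 (0.092). The share of protein-coding counts moved with this gene in Bexarotene 1 and 2, and its part in the result was not tested.

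Of the surface receptors, *Cd5* was also low in Bexarotene 1 and 2. It stood at 5.05, 4.65, 8.53 and 9.20 CPM in Bexarotene 1 to 4 and at 7.13, 5.02, 5.90 and 7.84 CPM in Vehicle 1 to 4. Bexarotene 3 and 4 lay above the vehicle-treated mice, and Bexarotene 2 below them. For *Cd5* edgeR gave a log2 fold change of 0.16, with a standard error of 0.24 and adjusted p = 0.991, and 0.46 without Bexarotene 1 and 2 and 0.0046 without Bexarotene 4.

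*Cd28* stood at 9.31, 7.18, 10.3 and 6.70 CPM in Bexarotene 1 to 4 and at 7.68, 4.92, 7.32 and 9.01 CPM in Vehicle 1 to 4. Bexarotene 1 and 3 were the highest and Vehicle 2 the lowest, with the other 5 mice between 6.70 and 9.01 CPM. The log2 fold change was 0.23 (standard error 0.22, adjusted p = 0.978 from edgeR; 95% interval −0.26 to 0.71), 0.24 without Bexarotene 1 and 2, and 0.084 without Vehicle 2.

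*Thy1*, the most abundant of the 9, stood at 107, 96.3, 106 and 114 CPM in Bexarotene 1 to 4 and at 88.3, 100.4, 134 and 85.8 CPM in Vehicle 1 to 4. The bexarotene-treated mice lay close together inside the range of the vehicle-treated mice. The coefficient of variation was 6.84% with bexarotene and 21.9% with vehicle. Its log2 fold change was 0.050 (standard error 0.20, 95% interval −0.39 to 0.49, adjusted p = 0.9999 from edgeR), 0.12 without Bexarotene 1 and 2, and −0.012 without Vehicle 4. Within a library, *Thy1* had 3.16, 3.12, 1.39 and 2.21 times the counts of *Ptprc* in Bexarotene 1 to 4, against 1.41, 2.15, 3.24 and 1.68 times in Vehicle 1 to 4, and these ratios overlapped.

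*Cd6* was the only 1 of the 9 genes whose groups did not overlap, on very few reads. It had 0 counts in each of Bexarotene 1 to 4 and 3, 6, 3 and 2 counts in Vehicle 1 to 4, or 0.0596, 0.298, 0.164 and 0.0670 CPM. Pooled over 4 mice its level with vehicle was 0.118 CPM (exact 95% Poisson interval 0.0645 to 0.198), and 3 counts, the floor taken for a group at 0, are worth 0.0506 CPM over the 4 bexarotene-treated mice. At that floor *Cd6* was 2.33-fold lower with bexarotene, taking the vehicle level as exact, or 1.28-fold at the lower end of the vehicle interval. The exact 95% Poisson interval of 0 counts reaches 0.0622 CPM, above the floor and close to the lower end with vehicle (0.0645). These values cover counting error only. The 2.33-fold value rests on the deeper libraries and on Vehicle 2. It was 1.18-fold without Bexarotene 3, 1.4996-fold without Bexarotene 4, 1.61-fold without Vehicle 2 and 1.99-fold without Bexarotene 1 and 2. In single mice, 3 counts are worth 0.473 and 1.27 CPM in Bexarotene 1 and 2, above every vehicle-treated mouse, so these 2 libraries cannot show a difference. They are worth 0.102 and 0.141 CPM in Bexarotene 3 and 4, which lie below Vehicle 2 and 3 but above Vehicle 1 and 4. *Cd6* did not pass the filter. In the fit of all 25539 rows with a count its unadjusted p was 0.00927, where 3.75% of rows fell under 0.05, and its adjusted p = 0.832 from edgeR. DESeq2 gave an unadjusted p of 0.0955 and limma-voom 0.112. All 4 bexarotene-treated mice lay below all 4 vehicle-treated mice for 1.4% of these rows. Beside these few reads stand those of *Cd8a* and *Cd8b1*, the co-receptor genes of cytotoxic T cells, which fall outside the naming rule and were chosen after these values were seen. *Cd8a* had 1, 0, 0 and 1 counts in Bexarotene 1 to 4, against 2, 33, 7 and 2 in Vehicle 1 to 4. *Cd8b1* had 1, 0, 0 and 0 counts in Bexarotene 1 to 4, against 2, 25, 3 and 5 in Vehicle 1 to 4. *Gzma*, a granule protease gene of cytotoxic cells, stood at 0.789, 0.422, 3.09 and 1.27 CPM in Bexarotene 1 to 4, against 0.854, 1.54, 1.09 and 1.11 CPM in Vehicle 1 to 4 (log2 fold change 0.55, unadjusted p = 0.248 in edgeR), values that overlapped between the groups. Neither *Cd8* gene passed the filter. Of the 10 tested genes in their list of surface receptors 8 were above 0, against 46.5% of all rows tested. The untested genes of that list were read from the edgeR fit of all rows with a count. There *Cd8a* was at −3.55, *Cd8b1* at −3.95, *Slamf6* at −1.17, *Icos* at −0.66 and *Ctla4* at 0.46. Vehicle 2 was the highest for *Cd6*, *Cd8a* and *Cd8b1* in CPM, and the part of such cells in the reads of *Cd6* was not tested.

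**Figure D3:**
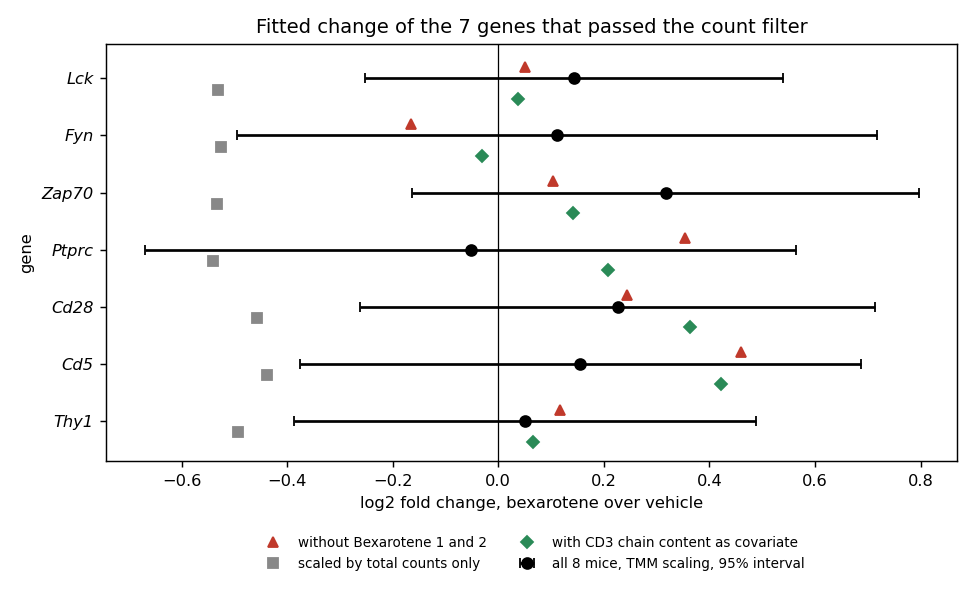
Fitted log2 fold change of bexarotene over vehicle for the 7 genes that passed the count filter (black, with 95% intervals), and the same value without Bexarotene 1 and 2 (red triangles), with total counts as the only scaling (grey squares) and with CD3 chain content as a covariate (green diamonds). All 7 intervals include 0, and the grey squares lie between −0.54 and −0.44.

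Levels were also set against the CD3 chains, which form the receptor complex that these kinases act on. The summed level of *Cd3d*, *Cd3e*, *Cd3g* and *Cd247* was 35.2, 24.9, 35.5 and 33.5 CPM in Bexarotene 1 to 4 and 31.8, 28.5, 30.6 and 33.2 CPM in Vehicle 1 to 4, so Bexarotene 2 had the least and the other mice lay close together. More than any other chain *Cd3e* made up this sum, and *Cd247*, the gene of the zeta chain on which ZAP-70 docks, added little. *Cd247* stood at 0.473, 0.845, 0.748 and 1.18 CPM in Bexarotene 1 to 4 (3, 2, 22 and 25 counts), against 1.17, 1.29, 1.75 and 2.14 CPM in Vehicle 1 to 4. Its log2 fold change was −0.90 (unadjusted p = 0.0287 and adjusted p = 0.976 in edgeR), and −0.71 without Bexarotene 1 and 2 (unadjusted p = 0.0925 in edgeR). Bexarotene 4 lay just above Vehicle 1, so the groups overlapped. Of the 6 tested receptor and CD3 chain genes *Cd247* alone had an unadjusted p under 0.05 in edgeR (16.7%, against 3.68% of rows). The fitted values of *Cd3d* (0.23), *Cd3e* (0.19) and *Trbc2* (0.52) were above 0, and those of *Cd3g* (−0.12) and *Trac* (−0.051) below. *Lck* stood at 0.487 ± 0.123 of that sum with bexarotene and at 0.445 ± 0.0964 with vehicle (SD, n = 4 each). *Zap70* stood at 0.426 ± 0.220 with bexarotene and at 0.321 ± 0.0145 with vehicle, and it reached 0.746 in Bexarotene 2. *Thy1* had 3.32 ± 0.405 times the sum with bexarotene and 3.32 ± 0.820 times with vehicle. CD3 content (the mean log2 level of the 4 chains, each with the same weight) was also used as a covariate. In it *Cd247*, with its few counts and its fitted value of −0.90, weighed as much as *Cd3e*. The part of *Cd247* in the adjusted values was not tested. With this covariate the log2 fold change of *Cd5* was 0.42 (unadjusted p = 0.0331 and adjusted p = 0.9999 from edgeR). The median of the 7 genes was 0.14, and 0 were called.

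Other cells that carry some of these genes were checked through their markers. B cells, which carry *Ptprc* and in part *Cd5*, were hardly seen: *Ms4a1* and *Cr2* were at 0 in every library, and 6 B-cell genes together reached 0 to 0.590 CPM per kilobase with bexarotene and 0.00756 to 0.393 with vehicle. Natural killer cell genes reached 0.420 to 3.07 and 0.886 to 1.75 with bexarotene and vehicle (6 genes, mostly *Gzma*, which T cells also express), mast cell genes 0.964 to 4.05 and 2.11 to 3.09 (6 genes), and platelet genes 0 to 2.32 and 0.801 to 2.94 (4 genes, of which *Gp9* was at 0). Macrophages, which carry *Ptprc*, had 24.1 to 34.2 with bexarotene and 14.97 to 60.3 with vehicle over 8 genes. Fitted values were below 0 for 7 of the 8 and above 0 for *Lyz2* (0.11), the most abundant. Of all rows tested, 46.5% were above 0. The lowest adjusted p of the 8 was 0.976 in edgeR. Neutrophil genes had 0.201 to 2.99 and 3.43 to 6.60 over 6 genes, ranges that did not overlap. Of the 5 tested neutrophil genes, 1 (*S100a8*) had all 4 bexarotene-treated mice below all 4 vehicle-treated mice, against 1.42% of rows tested. *S100a8* had few reads, with 0, 0, 8 and 10 counts in Bexarotene 1 to 4. Fitted values were below 0 for 4 of the 5 and above 0 for *Mmp9* (0.17). The lowest adjusted p of the 5 was 0.976 in edgeR. Fibroblast genes, of cells that can carry *Thy1*, summed to 114, 226, 49.2 and 64.9 CPM per kilobase in Bexarotene 1 to 4 and to 54.6, 103, 53.1 and 34.2 in Vehicle 1 to 4 (7 genes, of which *Col1a1* was the most abundant). The sum follows the collagen genes: *Dcn* (6.34 CPM), *Lum* (0.422 CPM) and *Dpt* (0 CPM) were lowest of all 8 mice in Bexarotene 2, and the fitted values of 4 of the 7 genes were below 0. Endothelial genes reached 2.24 to 3.78 with bexarotene and 2.88 to 3.95 with vehicle (5 genes), and the 7 receptor and CD3 chain genes 25.3 to 31.0 and 19.6 to 30.5. The part of these cells in the results was not tested.

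The wider pathway was read from 52 other genes in 4 lists, of which 44 passed the filter. None had an adjusted p under 0.05 in edgeR, DESeq2 or limma-voom. At an unadjusted p under 0.05 edgeR gave 2 of the 44, 4.55%, against 3.68% of all rows. Fitted values were above 0 for 28 and below 0 for 16 (median 0.094), where 46.5% of all rows tested were above 0. With total counts as the only scaling 1 of the 44 was above 0. Their median was then −0.50, against −0.66 for all rows tested. The kinases and lipid enzymes had a median of −0.0044 over 7 of 10 genes. Among the most abundant were *Dgkz* (log2 fold change 0.18), which ends diacylglycerol signals, the lipid kinase gene *Pik3cd* (0.33) and *Pdpk1* (−0.0044), with standard errors from 0.15 to 0.20. All 13 adaptors and exchange factors were tested (median −0.0013), among them *Rasgrp1* (0.11), a Ras activator, *Grb2* (−0.050), *Fyb* (−0.22) and *Lcp2* (−0.11), whose product SLP-76 joins LAT. For these 4 the standard errors ran from 0.19 to 0.22. Of 15 surface receptors 10 were tested (median 0.26), with *Cd96* at 0.35, *Pdcd1* at 0.78, *Ly9* at −0.13 and *Cd48* at 0.23, and standard errors of 0.47, 0.27, 0.18 and 0.25.

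The negative regulators had a median of 0.12 over all 14 genes. Their most abundant were *Ptpn6* (log2 fold change −0.29), the gene of the phosphatase SHP-1, *Csk* (0.72), the ubiquitin ligase gene *Cbl* (0.096) and the adaptor gene *Sla* (0.53), with standard errors of 0.21, 0.26, 0.15 and 0.25. *Csk* encodes the kinase that places on LCK and FYN the inhibitory phosphate that CD45 removes. It stood at 44.96, 57.4, 24.7 and 26.7 CPM in Bexarotene 1 to 4, against 24.0, 22.1, 22.4 and 23.2 CPM in Vehicle 1 to 4. The groups did not overlap, as for 1 of the 44 genes (2.27%, against 1.41% of rows), but Bexarotene 3 and 4 were only just above Vehicle 1, and the high mice were the 2 with the lowest share of protein-coding counts, whose part was not tested. Its unadjusted p was 0.0171 and its adjusted p = 0.976 from edgeR. Without Bexarotene 1 and 2 the log2 fold change was 0.18 (unadjusted p = 0.236 in edgeR), and with CD3 content as a covariate 0.30 (unadjusted p = 0.166). *Pdcd1*, the gene of the inhibitory receptor PD-1, stood at 18.8, 19.9, 16.1 and 10.7 CPM in Bexarotene 1 to 4, against 11.9, 8.70, 5.41 and 11.1 CPM in Vehicle 1 to 4. Bexarotene 4 lay within the range of the vehicle-treated mice and the other 3 above it. Its unadjusted p was 0.0137 and its adjusted p = 0.976 from edgeR, and without Bexarotene 1 and 2 the log2 fold change was 0.54 (unadjusted p = 0.117 in edgeR). *Csk* and *Pdcd1* were both below 0 with total counts as the only scaling (−0.26 and −0.12). That scaling moved the median of all rows tested to −0.66, so both genes stayed above it.

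**Figure D4:**
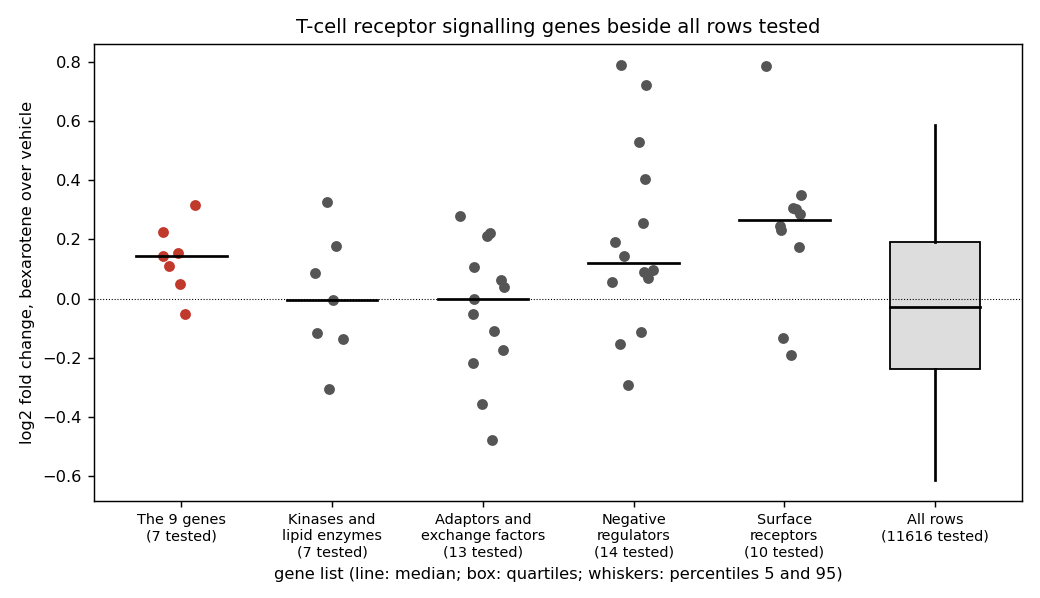
Log2 fold change of bexarotene over vehicle of each tested gene among the 9 genes (red) and in 4 lists of other T-cell receptor signalling genes (grey), with medians as lines, beside the quartiles (box) and percentiles 5 and 95 (whiskers) of all 11616 rows tested. The 7 red points lie between −0.052 and 0.32, within the whiskers of all rows (−0.61 to 0.59).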

How the data were processed

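The deposited table held raw counts per gene, which the authors had neither scaled nor filtered, and gene lengths. Per the labels, reads were trimmed with Trimmomatic 0.30, checked with FastQC 0.11.9, aligned to GRCm39 with HISAT2 2.0.1 (another version in the methods), counted with HTSeq 0.6.1 and tested with DESeq2, from a directional library kit. The tools used here were edgeR 4.0.16, DESeq2 1.42.0 and limma 3.58.1, run under R 4.3.3. Rows passed filterByExpr (minimum count 10, minimum total 15), counts were scaled by TMM, and bexarotene was compared with vehicle (4 mice each) with no covariate, over 11616 rows, in the quasi-likelihood test of edgeR, with Benjamini-Hochberg adjustment at 0.05. The test was checked on simulated data. *Lat* and *Cd6* failed the filter and were tested in a fit of all 25539 rows with a count. Levels per kilobase used the deposited lengths. They stand in for TPM over all rows, in which the 9 genes summed to 6.11 in Bexarotene 2 and 73.5 in Vehicle 1. These 2 mice had the lowest and the highest share of protein-coding counts (4.02% and 19.0%). The genes, lists and tests were chosen with earlier results of these data known. All 9 genes are named, and in each pathway list the 4 with the highest mean TPM, except for an item that is not reported here. *Csk* and *Pdcd1* are among these, while *Cd8a* and *Cd8b1* were named after their values were seen. Alternatives were RLE, upper-quartile and total-count scaling, protein-coding rows, 2 filters, limma-voom with weighted samples, DESeq2 (its own filters on or off), a CD3 covariate, a replicate block, robust dispersion, each mouse left out, no Bexarotene 1 and 2 and, chosen after seeing the data, canonical transcript lengths. No 2 libraries of a group agreed within sampling noise.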

Additional observations from a re-analysis of the deposited data

How the results depend on the processing

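Over the alternatives, 0 of 187 values of the 9 genes passed the adjusted threshold. The number of rows called was 0 in edgeR throughout, also without each mouse in turn, and 3 in DESeq2 with and without its filters. The median log2 fold change of the 7 tested genes was 0.084 to 0.23 without each mouse in turn. With total counts as the only scaling it was −0.53, with *Lck* at −0.53, *Fyn* at −0.53, *Zap70* at −0.53, *Cd28* at −0.46, *Cd5* at −0.44 and *Thy1* at −0.49. That scaling moved the median of all rows tested to −0.66, from −0.027 with TMM. *Thy1* was −0.032 with at least 10 counts in every mouse. *Fyn* and *Ptprc* were −0.032 and 0.21 with the CD3 covariate and −0.17 and 0.35 without Bexarotene 1 and 2. Without each mouse in turn, *Fyn* ranged from −0.16 to 0.28, *Ptprc* from −0.35 to 0.099 and *Thy1* from −0.012 to 0.21. The cause of these changes of sign was not tested. Mice with the same number in the 2 groups share only that number: their deviations from the group means had correlations of −0.077, −0.090, −0.073 and 0.0015, and no mouse correlated best with its own number. With a replicate block the median was 0.11, and 0 rows were called by edgeR (424 at an unadjusted p under 0.05).

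Depth limits *Lat* and *Cd6*, with 18 and 0 counts over the 4 bexarotene-treated mice, and the 95% intervals of the other genes reach from 0.629-fold (*Ptprc*) to 1.74-fold (*Zap70*).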
